A study of Mus musculus with 10 samples.

Results

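The genes described here encode synthesis enzymes, a helper protein of 5-lipoxygenase (Alox5ap) and receptors of the prostaglandin and leukotriene pathway. They were chosen by name: Ptgs1, Ptgs2, Ptges, Ptgis, Alox5, Alox5ap and Lta4h on the enzyme side, and Ptger2, Ptger4 and Ltb4r1 as receptors. All 10 were measured and passed the filter on dim signal, among 22520 gene names tested of 35527 on the array. RNA came from the infrarenal aorta of male C57BL/6J mice, 10 weeks old, collected 7 days after the operation. PPE mice received an aortic infusion of porcine pancreatic elastase (1.5 U/mL, 5 min, 100 mmHg), an elastin-degrading enzyme used to induce abdominal aortic aneurysm (AAA). Sham mice received saline by the same infusion. There were 5 mice per group, and each array carried the RNA of 1 mouse. All 10 arrays were hybridized with the same universal mouse reference RNA, a pool from cell lines, in the green channel (Cy3) against 500 ng of aortic RNA in the red channel (Cy5).

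Prostaglandins and leukotrienes are lipid signals made from arachidonic acid, which phospholipases A2 release from membranes. Cyclooxygenases turn it into a common precursor that terminal synthases convert to PGE2, prostacyclin, PGD2 or thromboxane, whereas 5-lipoxygenase, helped by the membrane protein FLAP, makes leukotriene A4, from which LTB4 or the cysteinyl leukotrienes follow. In the arterial wall prostacyclin relaxes smooth muscle and restrains platelets, and in leukocytes LTB4 is a strong chemoattractant.

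A value below is a log2 ratio of aortic over reference signal, so it compares the same gene between arrays and says nothing of one gene's level against another's. The probes read 60 bases each, and the array files place them on mouse build mm9. No exon annotation of this build was used here. The first 30 bases of 7 probes are given so that the transcript stretch read by the array can be found, with 2 probes for Ptges because they gave different values.
Alox5ap: agagacgcatcataacgcaatgccgcgaag
Lta4h: ggagagatctgaaagtggattaaggaactg
Ptger2: taaatgcagtcagaccaaatgaaattcatt
Ptger4: aagcacattggctgtcattctgatgtgact
Ltb4r1: cctgacccacttctgtacctggaggagaac
Ptges, brighter probe: atgataaaggactaaacctctgaacctgta
Ptges, dimmer probe: aaccctctgatcgcctggatacatttcctc
The Alox5ap probe lies at chr5:150099347-150099406 and the Lta4h probe at chr10:92947503-92947562. The receptor probes lie at chr14:45622004-45622063 (Ptger2), chr15:5184419-5184478 (Ptger4) and chr14:56387175-56387234 (Ltb4r1). The brighter Ptges probe lies at chr2:30744995-30745054 and the dimmer at chr2:30748214-30748273. The probes of Ptgs1, Ptgs2 and Alox5 lie at chr2:36105892-36105951, chr1:151954744-151954803 and chr6:116360326-116360385.

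The arrays lay on 5 slides. Sham 1, PPE 1 and PPE 2 shared slide 1, the only slide of the second scan day, and slide 2 held sham 2, sham 3, PPE 3 and PPE 4. Red signal stood well above background on a share of spots that ran from 37.6% (sham 5) to 65.8% (PPE 1). Across all gene names, 3122 (13.9%) were higher and 2244 (9.96%) lower in PPE at an adjusted p under 0.01 (limma, Benjamini-Hochberg), the threshold for every gene below. Sham and PPE values were fully separated for 25.5% of names. Centring each array on its median in place of loess moved the median difference of all genes from 0.02 to 0.41 and left 408 higher and 8 lower names. Called or not, 98.1% of the names tested had a higher mean in PPE under median centring, against 58.2% after loess.

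Among the 10 genes, 5 were higher in PPE, 1 was lower and 4 did not pass the test, and the groups did not overlap for 6. Of all gene names tested, 13.9% were higher and 9.96% lower, and the groups did not overlap for 25.5%. The share that was lower among the 10 was thus near that of all names. All 3 receptors were higher, against 2 of the 7 genes on the enzyme side. The only one of these 7 that fell was Ptgis, prostacyclin synthase. Those that rose, Alox5ap and Lta4h, both belong to the leukotriene branch. Of them, Alox5ap encodes a helper protein and not an enzyme. The median log2 difference was 0.71 over the 10 genes, beside 0.02 over all gene names tested. It was 0.40 over the 7 genes on the enzyme side, Alox5ap included, and 1.40 over the receptors. Under median centring of the arrays, Alox5ap was the only one of the 10 called (log2 difference 3.04, limma adjusted p 0.0099). Taken relative to the shift of all genes, the differences were then -1.91 for Ptgis, 2.63 for Alox5ap, 0.95 for Lta4h, 0.87 for Ptger2, 1.30 for Ptger4 and 1.84 for Ltb4r1, each in the same direction as after loess.

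**Figure D1:**
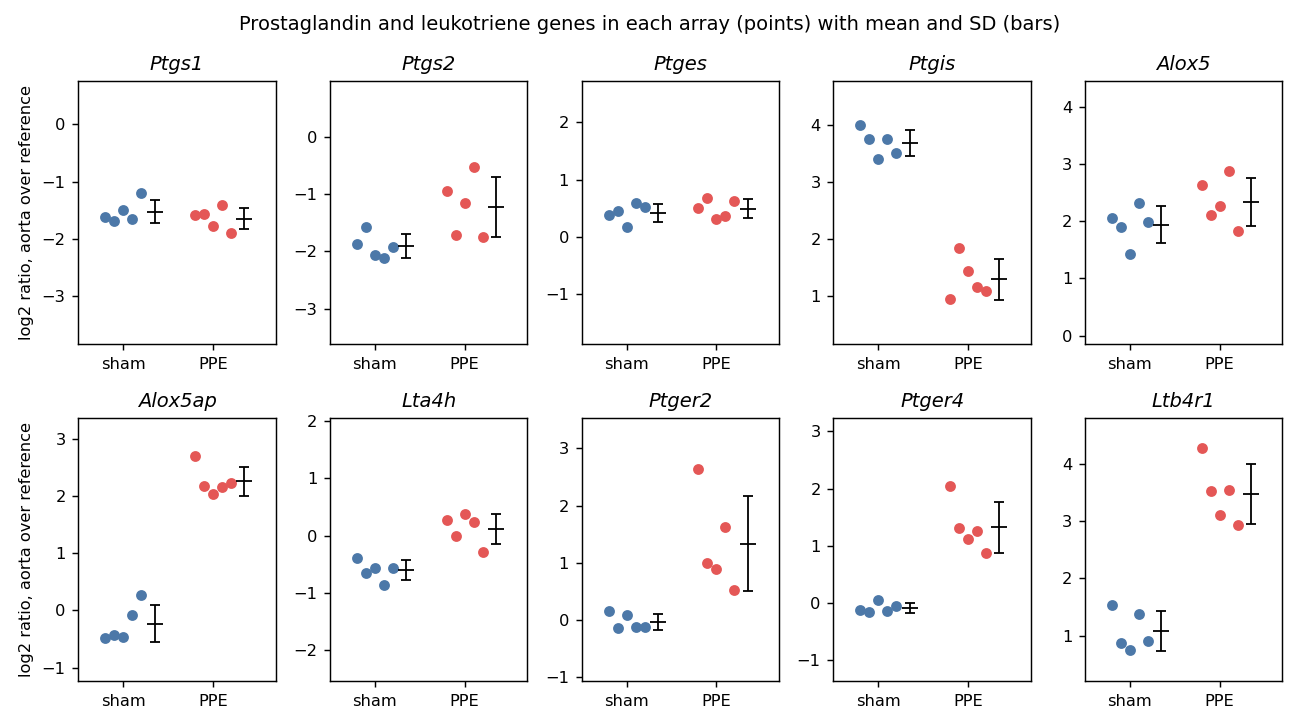
Log2 ratio of aorta over reference (y axis, the same span in every panel at different offsets) for each gene on the 5 sham arrays (blue) and the 5 PPE arrays (red), in replicate order from left to right. Bars give the mean and SD of each group. Ptgis falls and Alox5ap, Lta4h and the 3 receptors rise with no overlap, whereas Ptgs1, Ptgs2, Ptges and Alox5 overlap.

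Prostacyclin synthase, Ptgis, fell by 2.38 on the log2 scale, the only decrease among the 10 genes that passed the test. It is the terminal enzyme that turns the cyclooxygenase product into prostacyclin. On sham 1 to 5 the log2 ratio of Ptgis was 3.99, 3.75, 3.40, 3.76 and 3.51. On PPE 1 to 5 it was 0.95, 1.85, 1.44, 1.16 and 1.09. Every PPE array lay below every sham array, by at least 1.55 on the log2 scale. The means were 3.68 ± 0.23 (sham) and 1.30 ± 0.36 (PPE; SD, n = 5 each), a 5.22-fold lower ratio in PPE (95% confidence interval of the log2 difference -2.78 to -1.99, limma adjusted p 2.6e-06). Within slide 1 the log2 difference was -2.59 and within slide 2 it was -2.28. Under median centring it was -1.50 with an adjusted p of 0.21.

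Neither cyclooxygenase passed the test. Ptgs1, the constitutive form, had log2 ratios of -1.62, -1.69, -1.50, -1.65 and -1.19 in sham and of -1.58, -1.57, -1.77, -1.42 and -1.89 in PPE. The groups overlapped and the log2 difference was -0.12 (SE 0.13, limma adjusted p 0.54), and its sign turned with slide as a fixed block (0.02) and under median centring (0.55), but not with slide as a random block (-0.07). Ptgs2, the form induced by inflammatory signals, was read by 10 spots of 1 probe on each array. Its log2 ratios were -1.86, -1.58, -2.07, -2.11 and -1.93 in sham and -0.95, -1.72, -1.15, -0.53 and -1.75 in PPE. PPE 1, PPE 3 and PPE 4 lay above all sham arrays, whereas PPE 2 and PPE 5 lay within the sham range. The log2 difference of Ptgs2 was 0.69 (95% confidence interval 0.19 to 1.18), a 1.61-fold higher ratio, with a limma adjusted p of 0.033, over the threshold. A version of SAM run here, the test named in the study's methods, called Ptgs2 at q = 0.0067. It also called more gene names than limma did in both directions.

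Ptges encodes the inducible microsomal PGE2 synthase. Its brighter probe gave 0.39, 0.45, 0.18, 0.58 and 0.52 in sham and 0.51, 0.67, 0.30, 0.36 and 0.63 in PPE. The groups overlapped throughout, and the log2 difference was 0.07 (SE 0.12, limma adjusted p 0.69, 95% confidence interval -0.18 to 0.32). The dimmer probe gave -1.41, -1.31, -1.15, -1.57 and -0.97 in sham and -0.45, -0.88, -1.09, -0.68 and -1.04 in PPE, a log2 difference of 0.45 (limma adjusted p 0.042 over all probes). With both probes averaged the difference was 0.26 (adjusted p 0.072). Neither probe passed the threshold, and the size of the difference depended on the probe.

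In the leukotriene branch, Alox5ap rose most, Lta4h rose less and Alox5 did not pass the test. Alox5ap encodes FLAP, the membrane protein that presents arachidonic acid to 5-lipoxygenase. Its log2 ratios were -0.48, -0.42, -0.46, -0.08 and 0.27 in sham and 2.70, 2.17, 2.03, 2.16 and 2.24 in PPE. The lowest PPE array lay 1.76 above the highest sham array on the log2 scale. The mean rose from -0.23 ± 0.32 to 2.26 ± 0.26 (SD, n = 5 each), a 5.63-fold higher ratio (log2 difference 2.49, 95% confidence interval 2.11 to 2.88, limma adjusted p 1.6e-06). It was 2.91 within slide 1 and 2.53 within slide 2.

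Alox5, 5-lipoxygenase itself, had log2 ratios of 2.05, 1.91, 1.42, 2.31 and 1.98 in sham and of 2.64, 2.10, 2.26, 2.87 and 1.82 in PPE. Only PPE 1 and PPE 4 lay above all sham arrays. The log2 difference was 0.40 (95% confidence interval -0.07 to 0.87, limma adjusted p 0.18). It was 0.04 in the authors' own log2 ratios and 0.90 within slide 2. Lta4h encodes the hydrolase that turns leukotriene A4 into LTB4. Its log2 ratios were -0.38, -0.65, -0.57, -0.86 and -0.56 in sham and 0.27, -0.01, 0.38, 0.24 and -0.28 in PPE. The groups did not overlap, although PPE 5 lay only 0.11 above sham 1. The ratio of Lta4h was 1.65-fold higher in PPE (log2 difference 0.72, SE 0.14, limma adjusted p 0.0021), with differences of 0.51 within slide 1 and 0.92 within slide 2.

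All 3 receptors rose, and on each of them PPE 1 was the highest array and PPE 5 the lowest PPE array. These were also the PPE arrays with the most and the fewest red spots above background in their group (65.8% and 45.8%). The part of this share in the receptor values was not tested. Ltb4r1 encodes BLT1, the high-affinity LTB4 receptor of leukocytes. Its log2 ratios were 1.53, 0.86, 0.75, 1.38 and 0.90 in sham and 4.28, 3.53, 3.105, 3.54 and 2.93 in PPE. The groups were separated by 1.40 on the log2 scale. The ratio was 5.25-fold higher in PPE (log2 difference 2.39, 95% confidence interval 1.85 to 2.94, limma adjusted p 2.4e-05), and 1.88 on the log2 scale in the authors' own ratios. It was 2.38 within slide 1 and 2.52 within slide 2.

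Ptger4 encodes EP4 and Ptger2 encodes EP2, the PGE2 receptors that raise cyclic AMP. Ptger4 had log2 ratios of -0.12, -0.16, 0.05, -0.14 and -0.05 in sham and of 2.04, 1.31, 1.13, 1.26 and 0.87 in PPE. The sham arrays lay within 0.20 of each other, far below the lowest PPE array. The ratio was 2.65-fold higher in PPE (log2 difference 1.40, SE 0.19, limma adjusted p 0.00013), with differences of 1.79 within slide 1 and 1.25 within slide 2. Ptger2 had log2 ratios of 0.15, -0.14, 0.08, -0.12 and -0.12 in sham and of 2.64, 0.996, 0.90, 1.63 and 0.53 in PPE. The groups did not overlap, and the PPE arrays spread more widely (SD 0.83) than the sham arrays (SD 0.14). The ratio of Ptger2 was 2.58-fold higher (log2 difference 1.37, 95% confidence interval 0.65 to 2.08, limma adjusted p 0.0066).

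Ptger2 was the dimmest of the 10 genes and the least certain call. In red it stood well above background on 3 of 5 sham arrays and 5 of 5 PPE arrays, with median signals of 62.0 and 160.1 intensity units. The offset added in background correction draws such dim ratios towards 0, and without it the log2 difference was 2.19, and 2.67 in the authors' own ratios. The call was lost without any single sham array and without PPE 4 (adjusted p 0.012 to 0.019), with slide as a fixed block (0.021) and with no filter on dim probes (0.012). With slide as a random block it was kept (log2 difference 1.36, adjusted p 0.0037).

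**Figure D2:**
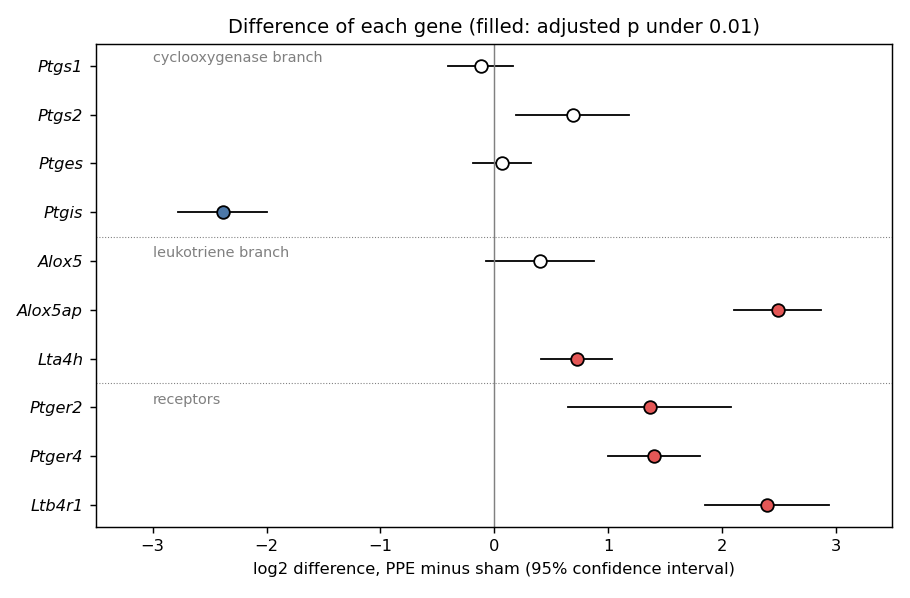
Log2 difference between PPE and sham (x axis, points) with its 95% confidence interval (lines) for each gene, grouped by role. Filled points passed an adjusted p under 0.01 (red higher, blue lower): Ptgis at -2.38, and Alox5ap at 2.49, Lta4h at 0.72, Ptger2 at 1.37, Ptger4 at 1.40 and Ltb4r1 at 2.39.

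Genes with linked roles, such as a receptor and the enzyme that makes its ligand, were next compared within each array. The difference of their log2 ratios was taken to see whether they changed unequally. The 5 pairs were compared by an exact two-sided permutation test over all 252 relabellings of the arrays, adjusted over the pairs by Benjamini-Hochberg, at a threshold of 0.05. The smallest p this design allows is 0.0079. The pairs were chosen with the differences of the single genes known, so these p-values restate those differences and are no independent support. Ptges minus Ptgis lay between -3.60 and -2.99 in sham and between -1.18 and -0.44 in PPE, a shift of 2.45 in favour of the PGE2 synthase (adjusted exact p 0.013). Ptgis fell and Ptges showed no called difference. Alox5ap minus Alox5 lay between -2.53 and -1.72 in sham and between -0.71 and 0.42 in PPE, a shift of 2.09 (adjusted exact p 0.013).

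Ltb4r1 minus Lta4h, the LTB4 receptor against the LTB4 enzyme, lay between 1.32 and 2.24 in sham and between 2.73 and 4.01 in PPE. The shift was 1.67 (adjusted exact p 0.013), from log2 differences of 2.39 for the receptor and 0.72 for the enzyme. Ptgs2 minus Ptgs1 lay between -0.73 and 0.10 in sham and between -0.15 and 0.89 in PPE. The groups overlapped through sham 2 and PPE 2, and the shift was 0.81 (adjusted exact p 0.020). Ptger4 minus Ptger2 shifted by 0.04 (adjusted exact p 0.88). It was -1.16 in the authors' own ratios (adjusted exact p 0.040), in which the dim Ptger2 probe moved more, so which PGE2 receptor changed more depended on the processing.

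**Figure D3:**
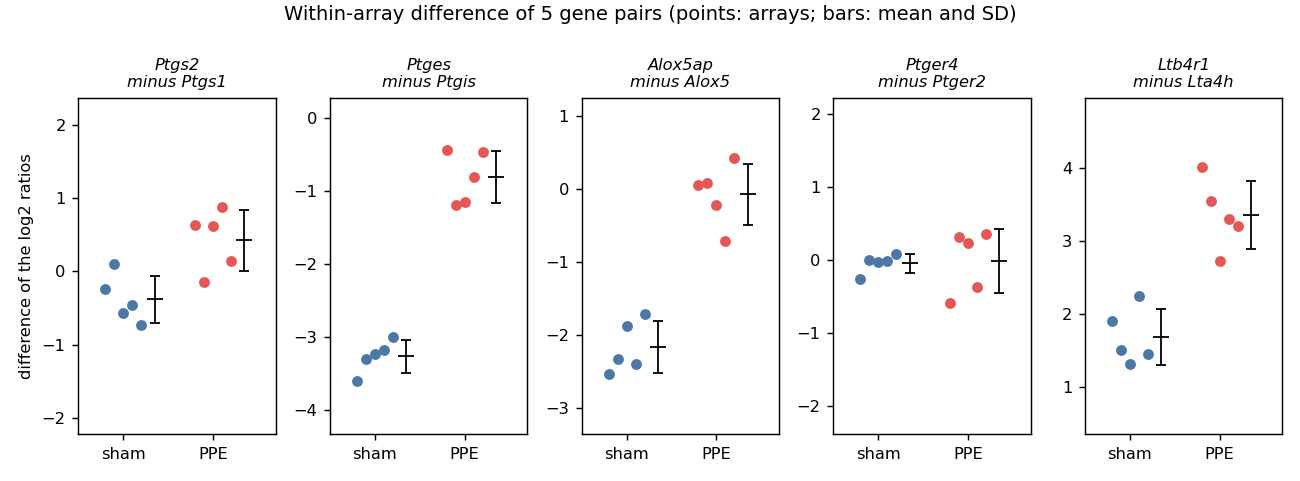
Difference of the log2 ratios of 2 genes on the same array (y axis, the same span in every panel) for the 5 sham (blue) and 5 PPE arrays (red), with the mean and SD of each group as bars. Ptges minus Ptgis, Alox5ap minus Alox5 and Ltb4r1 minus Lta4h separate the groups, Ptgs2 minus Ptgs1 overlaps, and Ptger4 minus Ptger2 is centred near 0 in both.

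**Figure D4:**
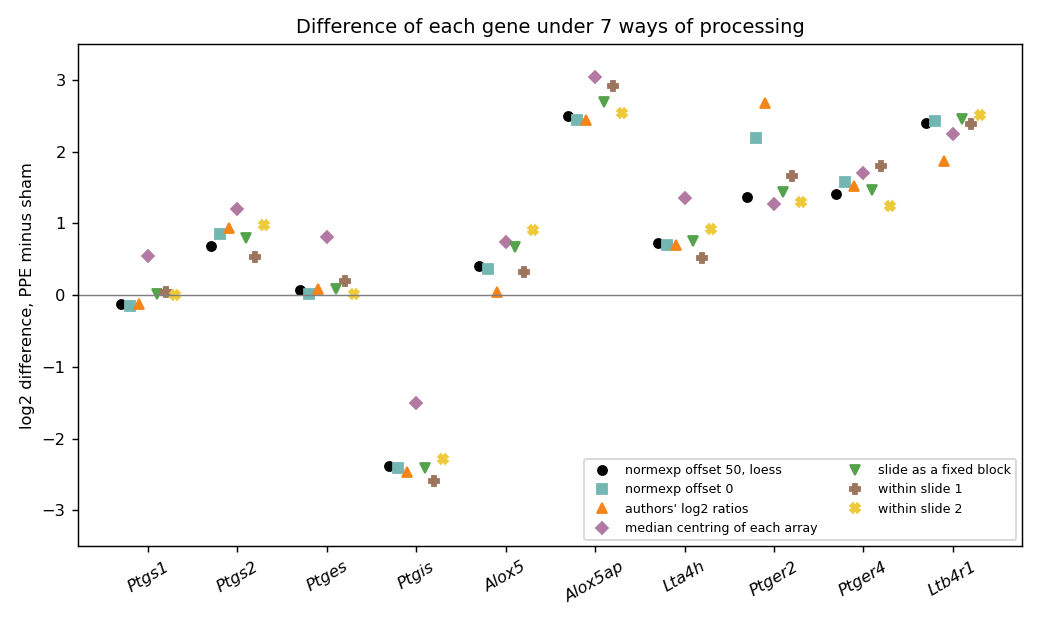
Log2 difference between PPE and sham (y axis) of each gene under 7 ways of processing the same arrays. These were the one used here (normexp offset 50 and loess), normexp with no offset, the authors' own log2 ratios and median centring. The others were slide as a fixed block and each of the slides that held both groups. The 6 called genes keep their direction in all of these, Ptger2 ranges from 1.27 to 2.67, and Ptgs1 lies on both sides of 0.

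The aorta is a mixture of cells, and in such bulk tissue fewer cells of a type and less RNA per cell cannot be told apart. Smooth muscle and endothelial markers were well above background in sham. Markers of several cell types moved with the groups. Of 8 macrophage markers 6 were higher in PPE, among them Emr1 and Fcgr1. The 2 not called, Mertk (-0.30, limma adjusted p 0.54) and Cd163 (-0.46, limma adjusted p 0.052), had negative log2 differences. The mean log2 ratio of the list lay between 0.33 and 0.69 on the sham arrays and between 2.07 and 3.11 on the PPE arrays. Of the 9 neutrophil markers measured, 7 were higher, among them S100a8 and Cxcr2, while Elane (0.59) and Csf3r (-0.07) were not called. The list mean went from between 0.42 and 0.53 to between 2.64 and 4.11. Cxcr2, Mpo and Ltf were well above background on 1 of 5 sham arrays each and on all 5 PPE arrays. These lists moved in the same direction as Alox5ap, Lta4h and the receptors, and their part in those values was not tested.

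Of 7 smooth muscle markers 6 were lower in PPE, among them Acta2 and Tagln, and the list mean fell from between 3.54 and 4.51 to between 1.83 and 3.05, in the direction of Ptgis. None of the 8 endothelial markers passed the test, and their list mean lay between 2.11 and 3.19 in sham and between 2.22 and 3.22 in PPE. Mast cell markers (0 of 5 called) and platelet markers (0 of 5 called) likewise gave no call, with list means of 2.60 to 3.30 in sham and 2.14 to 3.53 in PPE for mast cells, and of 0.13 to 1.96 and 0.05 to 2.14 for platelets. Among lymphocyte markers 2 of 7 were higher (list mean -0.69 to 0.38 in sham and -0.01 to 1.52 in PPE), and among fibroblast markers 2 of 5 (2.82 to 3.43 and 3.42 to 4.47). Of 5 adipocyte markers 1, Ucp1, was lower (4.42 to 5.58 and 3.29 to 4.85). The part of smooth muscle or fat in the value of Ptgis was not tested.

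The genes whose profiles lay closest to the strongest rise and the strongest fall were found by the root mean square distance over the 10 arrays, after each of 16108 symbols was centred on its sham mean. For Alox5ap they were Lrrc33 (distance 0.15, log2 difference 2.57), Cd300ld (0.16, 2.49) and Cysltr1 (0.17, 2.51), the last of which encodes a receptor of the cysteinyl leukotrienes. For Ptgis they were Csrp1 (distance 0.11, log2 difference -2.29), Pls3 (0.12, -2.32) and A530047J11Rik (0.14, -2.34). After this centring the distance depends largely on the log2 difference, so the nearest genes share its size by construction. Shared regulation was not tested.

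The rest of the pathway was described from 46 further genes in 6 lists, of which 35 passed the filter on dim signal. Of these 35, 11 (31.4%) were higher and 6 (17.1%) lower in PPE, beside 13.9% and 9.96% of all gene names, and their median log2 difference was 0.03. The groups did not overlap for 13 of them, beside 25.5% of all gene names. Under median centring, Dpep2 and Cysltr1 alone of the 35 passed, both higher. The other increases lost their calls at log2 differences of 0.76 to 2.71, among them Tbxas1 (2.07), Hpgds (1.07) and Cyp4f18 (2.71). The 6 decreases lost theirs and shrank by over 1.5 times, to -0.87 (Pla2g5), -0.18 (Ptgds), -0.35 (Ptges2), -0.57 (Mgst3), -0.58 (Dpep1) and -0.46 (Ptgr2). These values include the shift of all gene names under median centring, from a median of 0.02 to 0.41. That shift adds to rises and takes from falls, and values relative to it were not computed for these genes. The authors' own ratios gave changes over 1.5 times larger for 3 called genes described below, Pla2g5 (-2.37), Hpgds (2.41) and Ptger1 (1.34).

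Upstream, 1 of the 6 phospholipases A2 tested passed, and it was lower. Pla2g5, a secreted form, fell by 1.39 on the log2 scale (limma adjusted p 5.2e-05), from between -0.30 and 0.37 in sham to between -1.75 and -1.16 in PPE. Pla2g4a, the cytosolic form that feeds both branches, gave a log2 difference of -0.08 (limma adjusted p 0.66). Pla2g4c, Pla2g10, Pla2g2a and Pla2g2f were too dim to be tested.

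Of the 6 other prostanoid synthases, 2 were higher and 2 lower. Tbxas1, the thromboxane synthase, rose by 2.06 (limma adjusted p 0.00063), from between 1.37 and 2.78 in sham to between 3.34 and 4.82 in PPE, but by 1.19 in the authors' own ratios, where its call was lost (adjusted p 0.017). Hpgds, the haematopoietic PGD2 synthase, rose by 1.13 (limma adjusted p 0.00031), with signal above background on 2 of 5 sham arrays and 5 of 5 PPE arrays. Ptgds, the lipocalin-type PGD2 synthase, fell by 0.69 (limma adjusted p 0.0057), so the synthases of PGD2 moved in opposite directions. The call of Ptgds was lost without sham 1, 4 or 5 or PPE 1, 2, 3 or 4 (adjusted p up to 0.016). Ptges2, a membrane-associated PGE2 synthase, fell by 0.98 (limma adjusted p 0.00033), from between -0.15 and 0.66 to between -0.79 and -0.53. The cytosolic PGE2 synthase Ptges3 gave -0.03 (limma adjusted p 0.92).

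Of 10 other lipoxygenases and enzymes of the cysteinyl leukotrienes tested, 2 were higher and 2 lower. Dpep2, a dipeptidase that turns leukotriene D4 into E4, had the largest rise of the 35, by 2.91 (limma adjusted p 6.0e-07), from between -0.16 and 0.50 in sham to between 2.75 and 3.48 in PPE. Its relative Dpep1 fell by 1.29 (limma adjusted p 0.0014), from between 1.95 and 2.76 to between 0.47 and 1.76. Ggt5, which makes leukotriene D4 from C4, rose by 1.18 (limma adjusted p 0.0052), but its second probe gave 0.15, the mean of both probes gave 0.66, and the call was lost without sham 2, 3, 4 or 5 or PPE 1, 2 or 4. Mgst3, a microsomal glutathione transferase, fell by 1.27 (limma adjusted p 0.00014). Ltc4s, the leukotriene C4 synthase itself, gave -0.06 (limma adjusted p 0.89). Ggt1 and Alox8 were too dim to be tested.

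Of the 5 other prostanoid receptors tested, 2 were higher and 0 lower, and the 1 other leukotriene receptor tested was higher. Cysltr1, the single other leukotriene receptor bright enough to be tested, rose by 2.51 (limma adjusted p 6.5e-06), from between 0.32 and 1.10 in sham to between 2.71 and 3.74 in PPE. Ptgir, the prostacyclin receptor, rose by 1.01 (limma adjusted p 0.0028), the opposite direction to the prostacyclin synthase. Its PPE arrays lay between 0.22 and 1.38, and PPE 5 lay below the highest sham array (0.26). Ptger1, the EP1 receptor, rose by 0.82 (limma adjusted p 0.0066), but its call was lost without sham 2, 3, 4 or 5, without PPE 1, 2, 3 or 4, and with no filter on dim probes. Its signal stood well above background on 3 of 5 sham arrays and 5 of 5 PPE arrays. The groups overlapped, with PPE 5 (-0.01) below the highest sham array (0.13).

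Tbxa2r, the thromboxane receptor, gave -0.77 (limma adjusted p 0.019) and passed the threshold without sham 3 or without PPE 2 (adjusted p 0.0061 and 0.0057), in the authors' own ratios, with slide as a random block and by SAM. Ptger3, the EP3 receptor, gave -0.86 (limma adjusted p 0.23) with wide spread in both groups (SD 1.03 in sham and 0.89 in PPE). Ptgfr, another prostanoid receptor, gave 0.16 (limma adjusted p 0.41). Ptgdr, Gpr44, Ltb4r2, Cysltr2 and Oxgr1 were too dim to be tested.

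Of 7 genes of eicosanoid breakdown and transport, 4 were higher and 1 lower. Cyp4f18, which inactivates LTB4, rose by 2.43 (limma adjusted p 4.7e-05), from between 0.54 and 1.27 to between 2.68 and 4.04, beside the rise of the LTB4 receptor and enzyme. Ptgr1, a reductase that inactivates LTB4 and prostaglandins, rose by 1.31 (limma adjusted p 5.8e-05), and Abcc4, an exporter of prostaglandins, by 0.85 (limma adjusted p 0.00059). Ptgr2, a related reductase, fell by 1.12 (limma adjusted p 0.00054), while its other probes gave -0.66 and -0.52 and did not pass. Hpgd, which starts the breakdown of PGE2, gave 0.07 (limma adjusted p 0.92).

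**Figure D5:**
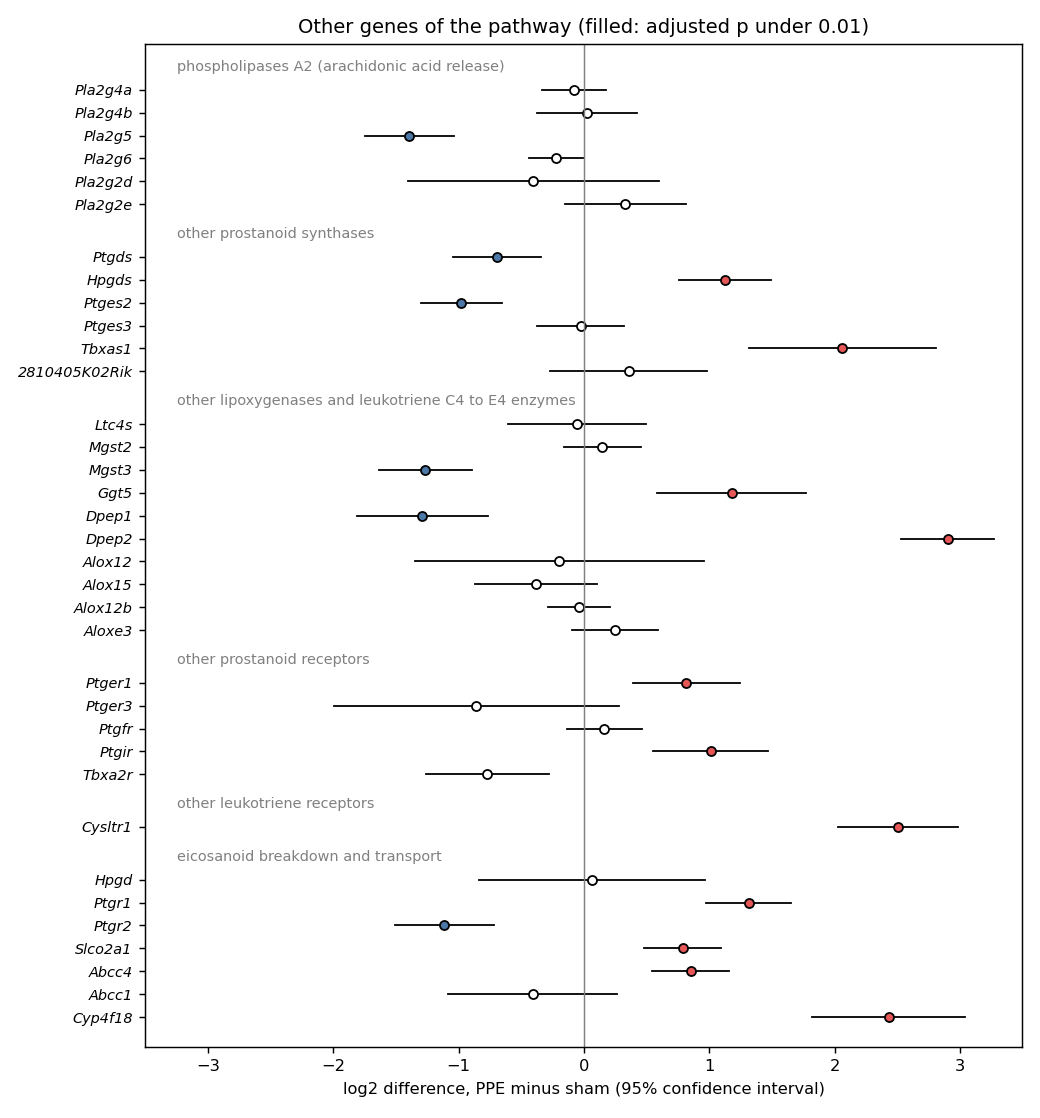
Log2 difference between PPE and sham (x axis, points) with its 95% confidence interval (lines) for the 35 further pathway genes tested, by list. Filled points passed an adjusted p under 0.01 (red higher, blue lower). Dpep2 at 2.91, Cysltr1 at 2.51, Cyp4f18 at 2.43 and Tbxas1 at 2.06 lie farthest to the right, and Pla2g5 at -1.39 farthest to the left.

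Promoters were read for the receptors, which rose together, and for Ptgs2 beside them as the inducible enzyme that did not pass the test. The sequences are RefSeq entries of GRCm38.p6, and 8 of the 10 genes had an entry. Ptgis and Alox5ap had none, so their windows were not read. Each runs 5′ to 3′ on the gene's strand, from 250 bases before the start of the gene to 30 bases after it. Capitals mark every match to 7 motifs searched on both strands: GGGCGG (the GC box), CCAAT (the NF-Y box), TATAAA (the TATA box), CACGTG (an E box), TGACG (the core of a cyclic AMP response element), TTGCGCAA (a C/EBP palindrome) and GAGGAAGT (an ETS site).
Ptger2: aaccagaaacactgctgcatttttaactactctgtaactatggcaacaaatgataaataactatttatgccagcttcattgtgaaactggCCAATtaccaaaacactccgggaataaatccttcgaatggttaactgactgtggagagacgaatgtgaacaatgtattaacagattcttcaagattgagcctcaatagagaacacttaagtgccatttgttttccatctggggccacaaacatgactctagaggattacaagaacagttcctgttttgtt
Ptger4: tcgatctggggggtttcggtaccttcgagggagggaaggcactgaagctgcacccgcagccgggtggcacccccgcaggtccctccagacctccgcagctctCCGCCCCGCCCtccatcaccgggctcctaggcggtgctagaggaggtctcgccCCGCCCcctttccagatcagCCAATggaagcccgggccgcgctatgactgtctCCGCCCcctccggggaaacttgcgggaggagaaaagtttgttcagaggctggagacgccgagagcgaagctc
Ltb4r1: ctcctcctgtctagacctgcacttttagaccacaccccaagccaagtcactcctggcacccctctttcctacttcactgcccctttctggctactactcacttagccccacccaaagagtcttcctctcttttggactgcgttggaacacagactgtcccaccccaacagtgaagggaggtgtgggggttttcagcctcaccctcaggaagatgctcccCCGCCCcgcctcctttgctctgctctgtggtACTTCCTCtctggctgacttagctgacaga
Ptgs2: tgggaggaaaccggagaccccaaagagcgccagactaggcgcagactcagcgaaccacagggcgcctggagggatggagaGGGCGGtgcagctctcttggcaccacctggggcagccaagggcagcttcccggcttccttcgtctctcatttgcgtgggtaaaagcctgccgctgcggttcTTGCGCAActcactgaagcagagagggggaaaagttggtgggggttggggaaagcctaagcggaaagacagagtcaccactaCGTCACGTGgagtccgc
The Ptger2 stretch is chr14:44987861-44988140, plus strand, and the Ptger4 stretch is chr15:5244158-5244437, minus strand. The Ltb4r1 stretch is chr14:55765712-55765991 and the Ptgs2 stretch is chr1:150099781-150100060, both on the plus strand. Positions count from the gene's start and give a motif's first base on the gene's strand. Ptger4 held GGGCGG on the opposite strand at -148, -143, -95 and -42, the first 2 of them sharing 1 base, and CCAAT at -75. Ptger2 held CCAAT at -160 and no GGGCGG. Ltb4r1 held GGGCGG at -31 and GAGGAAGT at 1, both on the opposite strand. Ptgs2 held GGGCGG at -170, TTGCGCAA at -69, TGACG at 14 on the opposite strand and CACGTG at 17, the last 2 overlapping.

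No motif was shared by the 3 receptors, in letters, within these windows. Among the genes not printed, Ptges and Alox5 also held GGGCGG, Lta4h held CCAAT and Ptgs1 held GAGGAAGT. Motifs of the receptor windows thus occurred in genes without a call as well. Of 32851 promoters of the same length, 34.7% held GGGCGG, 36.1% CCAAT, 19.9% TGACG, 13.1% TATAAA, 6.79% CACGTG, 2.82% GAGGAAGT and 0.18% TTGCGCAA. A match of letters is a description of the window and was not tested as a binding site.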

How the data were processed

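Gene expression in the infrarenal aorta was measured on 10 two-colour Agilent arrays, 5 sham and 5 PPE, 1 mouse each, with no dye swap. Groups and replicate numbers came from the sample labels. The authors used Agilent Feature Extraction 10.7.3.1 to read the spots. The deposited spot and background signals are an intensity on a linear scale, and the deposited series matrix holds log2 ratios, which equalled log2 of processed red over green signal on 100% of spots (tolerance 1e-04). Per the study's methods the authors left out arrays with poor hybridization and removed outliers by clustering. Which ones is not stated.

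Background was corrected here by normexp (offset 50) and each array normalized by loess in limma 3.58.1 (R 4.3.3). The offset understates changes of dim probes. Control spots had weight 0 in loess, and outlier spots were dropped. Probes entered the test when flagged well above background in red on 5 or more of the 10 arrays, and a gene was represented by its brightest tested probe. The sequence and position of 1 probe are not reported here. The unpaired, two-sided comparison of PPE with sham used limma's lmFit and eBayes, with Benjamini-Hochberg adjustment over 22520 gene names. The number of arrays limits the precision. The method was tested on simulated data in which 200 of 22489 genes were changed, fewer than were called in the real data. There limma recovered 13.1% of log2 changes of 0.5, 60.5% of changes of 1 and 93.7% of changes of 2. Of its 115 calls 2 were false. A gene without a call is thus not shown to be unchanged.

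The genes, the lists of other pathway genes and markers, and the pairs were chosen with earlier results of these data known. Of other pathway genes, at most the 3 largest called changes per list and direction are named, with uncalled ones given as values for context and chosen after their values were seen. 1 listed gene, Fam213b, is named 2810405K02Rik in the files. Alternatives were median centring, Aquantile, the authors' ratios, no offset, stricter and no filters, averaged probes, slide, scan day and replicate blocks, SAM (100 relabellings) and each array left out.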

Additional observations from a re-analysis of the deposited data

Results flagged for a closer look

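Each group of 5 arrays was searched for an array far from the other 4 (Dixon's test at the 95% level). Of 100 groups searched, over the 10 genes, their pairs and the other pathway genes, 3 held such an array, and about 5% do by chance. None of the 20 groups of the 10 genes did. Mgst3 on sham 3 had a log2 ratio of 0.95, with the next sham array at 0.47, and its fall in PPE was still called without that array (log2 difference -1.16). Hpgd on sham 1 had a log2 ratio of 3.69, with the next at 2.33. Cyp4f18 on sham 2 had a log2 ratio of 0.54, with the next at 1.08, and its rise was still called without that array (2.31).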

How the results depend on the processing

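Every alternative named in the processing section was run. Of the 6 called genes, Ptgis, Alox5ap, Lta4h, Ptger4 and Ltb4r1 kept their call under each except median centring, under which Alox5ap alone kept it and the others gave log2 differences of -1.50 (Ptgis), 1.35 (Lta4h), 1.71 (Ptger4) and 2.25 (Ltb4r1). Ptger2 lost its call under median centring (1.27), with no filter (1.37) and with slide as a fixed block (1.44), was not tested when all 10 arrays had to be above background, and ranged from 1.04 to 1.57 with each array left out in turn. Ptgs2 was called by SAM (0.69). Ptgs1 turned sign under median centring (0.55) and slide as a fixed block (0.016). Within slides, Alox5 moved to 0.90, Alox5ap to 2.91 and Ptger4 to 1.79. The cause of these changes was not tested.

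Median centring left 1 of the 10 genes higher and 0 lower, 2 other pathway genes higher and 0 lower, and 408 higher and 8 lower names in all, whereas SAM gave 4737 and 3496. The authors' ratios gave 3167 and 3093. Ptger4 minus Ptger2 turned sign in the authors' ratios (-1.16), with no offset (-0.61), and with single arrays left out (-0.054 to 0.18). The deviations of same-numbered arrays from their group means correlated from -0.30 to 0.52, above 0.1 for 3 of 5 numbers. Pairing was to be accepted if all 5 exceeded 0.1, so the numbers were not taken as pairs. With the replicate block 3024 names were higher and 2281 lower, and no call of the 10 genes changed. For the pairs of genes, 5 blocks allow no p under 0.0625, so the shifts of 0.81 (Ptgs2 minus Ptgs1), 2.45 (Ptges minus Ptgis), 2.09 (Alox5ap minus Alox5) and 1.67 (Ltb4r1 minus Lta4h) could not pass.

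Other pathway genes that turned sign were all uncalled. Under median centring, with the shift of all genes included, these were Pla2g4a (0.56), Pla2g6 (0.33), Pla2g2d (0.14), Ptges3 (0.75), Ltc4s (0.49), Alox12 (0.0051), Alox12b (0.15) and Abcc1 (0.26). In the authors' ratios they were Pla2g4b (-0.075) and Ptges3 (0.016), and with no offset Pla2g4b (-0.0099). With slide as a fixed block they were Pla2g4b (-0.040), Alox12b (0.020) and Hpgd (-0.17). Hpgd also turned with slide as a random block (-0.083), scan day as a block (-0.23) and averaged probes (-0.12), and Ptges3 with scan day (0.033). With single arrays left out, Pla2g4b ranged from -0.12 to 0.11, Ptges3 from -0.15 to 0.040, Ltc4s from -0.18 to 0.11, Alox12 from -0.47 to 0.17, Alox12b from -0.078 to 0.017 and Hpgd from -0.19 to 0.36.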
